A study of Homo sapiens with 8 samples.

Results

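The genes described here encode the general machinery that removes the cap and the poly(A) tail of a cytoplasmic mRNA and then digests its body. They were taken by symbol, from a list of 50 genes written from their known roles, and 50 of 50 were found among the 17076 genes with a value. The mRNA sequenced was that of Huh7, a cell line established from a hepatocellular carcinoma, with 4 groups of 2 libraries. In the depletion arm, siRNA against UPF1 (siUPF1) was transfected, and its control received a scrambled siRNA (siControl). In the overexpression arm, a plasmid for MYC-tagged UPF1 (MYC-UPF1) was transfected, and its control received the MYC tag vector alone (MYC). No other agent separates the groups, and all 8 libraries come from the same line. The time after transfection and which UPF1 siRNA was used for the sequenced cells are not given in the sources used here.

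UPF1 is the RNA helicase at the centre of nonsense-mediated mRNA decay, which finds transcripts whose translation ends too early and passes them to the enzymes described here. In bulk decay, the poly(A) tail is first shortened by PAN2-PAN3 and then by the CCR4-NOT complex, which displaces poly(A)-binding proteins. The tail-less mRNA is bound by the LSM1-7 ring and decapped by DCP2 for digestion from the 5′ end by XRN1, or it is degraded from the 3′ end by the RNA exosome.

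Values are FPKM, fragments scaled to transcript length and to the number mapped in the library, so levels can be set side by side between genes. The number of reads behind an FPKM value is unknown, and no counting error can be given. Summed FPKM ranged from 403902 to 455592 between libraries. UPF1 itself was at 44.5 and 47.4 FPKM in siControl and at 20.7 and 21.9 FPKM in siUPF1, and it fell by 1.07 on the log2 scale (limma, adjusted p = 0.0308). It was at 45.1 and 57.4 FPKM in MYC against 2835 and 2484 FPKM in MYC-UPF1, a log2 fold change of 5.68. Of the hepatocyte and hepatoma markers, ALB was at 6550 to 8371 FPKM and AFP at 11093 to 12505 FPKM across the 8 libraries. Of the markers of other cells that have a value, PECAM1 (endothelial) and 3 fibroblast genes had means at or below 0.854 FPKM, while LYZ, on the blood list, was at 195 FPKM and EPCAM, on the cholangiocyte list, at 31.8 FPKM. In these bulk libraries, fewer cells with a transcript and less of it per cell cannot be told apart. The labels do not say that the 2 libraries of a group came from separate cultures, so p-values measure only the spread between these libraries, which may be technical.

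All 50 genes were above the minimum of 0.5 FPKM used for testing. Their median level over the 8 libraries was 19.8 FPKM, against 3.98 FPKM for all genes listed. Of the 50, 41 had a mean of at least 5 FPKM, 6 of at least 50 FPKM and 9 were below 5 FPKM. The 6 most abundant were PABPC1 (271 FPKM), LSM4 (104 FPKM), LSM7 (101.9 FPKM), PABPC4 (79.2 FPKM), PABPN1 (64.0 FPKM) and XRN2 (51.8 FPKM). The 4 least abundant were CNOT6L (0.940 FPKM), XRN1 (1.70 FPKM), DCP1A (2.45 FPKM) and PAN3 (2.52 FPKM). Thus the 3 poly(A)-binding proteins and 2 of the 7 ring subunits were among the 6 most abundant, with another ring subunit, LSM6, at 4.58 FPKM, while the cytoplasmic 5′-3′ exonuclease and the PAN2 partner stood near the bottom.

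The mRNAs of related enzymes were at unequal levels in every library, except DIS3 and DIS3L, whose order changed between libraries. All ratios here are of FPKM. The nuclear exonuclease XRN2 was 23.7 to 42.9 times as abundant as the cytoplasmic XRN1. The deadenylase CNOT6 was 10.04 to 18.1 times as abundant as its paralogue CNOT6L, whereas CNOT8 was only 1.17 to 1.54 times as abundant as CNOT7. CNOT6 and CNOT6L are alternative catalytic subunits of CCR4-NOT, as are CNOT7 and CNOT8. PAN2, the catalytic subunit of its complex, was 4.22 to 6.99 times as abundant as PAN3. The nuclear exosome nuclease EXOSC10 was 4.95 to 7.34 times as abundant as DIS3, the processive nuclease of the exosome, and DIS3 was 0.986 to 1.36 times as abundant as its cytoplasmic paralogue DIS3L.

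Promoter sequences are shown for LSM4, TOB1 and BTG1, 3 of the 8 genes that changed after depletion as described below. LSM7, the other ring subunit that changed, has an entry whose window overlaps the start of a neighbouring gene, and it is not shown. They come from RefSeq on GRCh38.p14, a different build from that of the expression files. Of the 50 genes, 42 matched a promoter entry by symbol, and TOB1 has 2 starts. Each sequence is the 250 bases before the start, 5′ to 3′ on the minus strand, on which all 3 genes lie. They cover chr19:18323077-18323326 for LSM4, chr17:50867979-50868228 and chr17:50866355-50866604 for the first and the second start of TOB1, and chr12:92145847-92146096 for BTG1. Capitals mark matches on either strand to a TATA box, searched as TATAAA, to a CCAAT box, searched as its name spells it, or to a GC box, searched as GGGCGG.
LSM4: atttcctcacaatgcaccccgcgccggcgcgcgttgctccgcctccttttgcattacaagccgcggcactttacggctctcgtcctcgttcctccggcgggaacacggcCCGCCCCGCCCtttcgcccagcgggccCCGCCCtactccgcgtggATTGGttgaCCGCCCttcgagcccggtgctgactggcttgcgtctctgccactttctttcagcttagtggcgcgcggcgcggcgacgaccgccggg
TOB1 start 1: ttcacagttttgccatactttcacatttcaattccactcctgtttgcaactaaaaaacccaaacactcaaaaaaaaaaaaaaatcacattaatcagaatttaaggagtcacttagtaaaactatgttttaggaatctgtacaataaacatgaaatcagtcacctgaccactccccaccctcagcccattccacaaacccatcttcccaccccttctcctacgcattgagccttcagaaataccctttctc
TOB1 start 2: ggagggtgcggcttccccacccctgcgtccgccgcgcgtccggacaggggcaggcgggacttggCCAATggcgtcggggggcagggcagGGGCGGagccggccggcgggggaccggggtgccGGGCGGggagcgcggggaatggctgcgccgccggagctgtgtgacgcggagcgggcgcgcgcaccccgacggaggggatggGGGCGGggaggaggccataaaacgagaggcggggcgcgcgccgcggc
BTG1: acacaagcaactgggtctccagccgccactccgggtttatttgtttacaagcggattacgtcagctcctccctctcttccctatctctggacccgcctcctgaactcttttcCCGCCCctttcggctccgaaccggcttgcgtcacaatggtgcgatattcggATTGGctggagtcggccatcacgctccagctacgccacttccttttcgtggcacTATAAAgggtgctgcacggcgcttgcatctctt

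The LSM4 promoter had a GC content of 68.4%, and it holds GC boxes and 1 CCAAT box. The first TOB1 start had a GC content of 38.4% and held none of the motifs searched, while the second, at 80.4%, held GC boxes and 1 CCAAT box. BTG1 was at 56.4% and carried 1 each of the 3 motifs. In windows of 300 bases, which add 50 bases after the start, a GC box was found in 34 of 42 of these genes (81.0%) and in 44.6% of all 27305 promoters, taking the first entry per symbol. A TATA box was found in 2 of 42, BTG1 and EXOSC8 (4.76% against 11.95%). A CCAAT box was found in 38.1% against 35.7%. The E box CACGTG was found in 7.14% against 7.43%, the cAMP response element TGACGTCA in 2.38% against 1.98%, and the ETS motif CCGGAAGT in 11.9% against 4.44%. These matches are descriptions of letters in the windows and not binding sites. XRN2, the exonuclease described above, was the gene with the cAMP response element.

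After UPF1 depletion, the changes among these genes were few, small and in both directions. At an unadjusted p of 0.05, 4 of 50 genes rose (8%) and 4 of 50 fell (8%), where 16% of the 13535 genes tested rose and 5.51% fell. LSM4, LSM7, CNOT3 and PAN3 rose, and TOB1, PABPC1, XRN1 and BTG1 fell. None of the 50 passed an adjusted p of 0.05, which 0.0369% of all genes did, and the smallest adjusted p was 0.141, for TOB1. Log2 fold changes ran from -0.33 for TOB1 to 0.30 for LSM4, or from 0.797-fold to 1.23-fold of the control on the scale of FPKM + 1. The median change was -0.02, against 0.06 for all genes tested, and 20 of 50 genes had a positive value, against 60.9% of all genes. The members' median minus that of all genes was -0.080, but it was 0.0089 with the trend with GC content and length removed. It was -0.021 without siUPF1 replicate 2 and -0.126 without siUPF1 replicate 1.

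**Figure D1:**
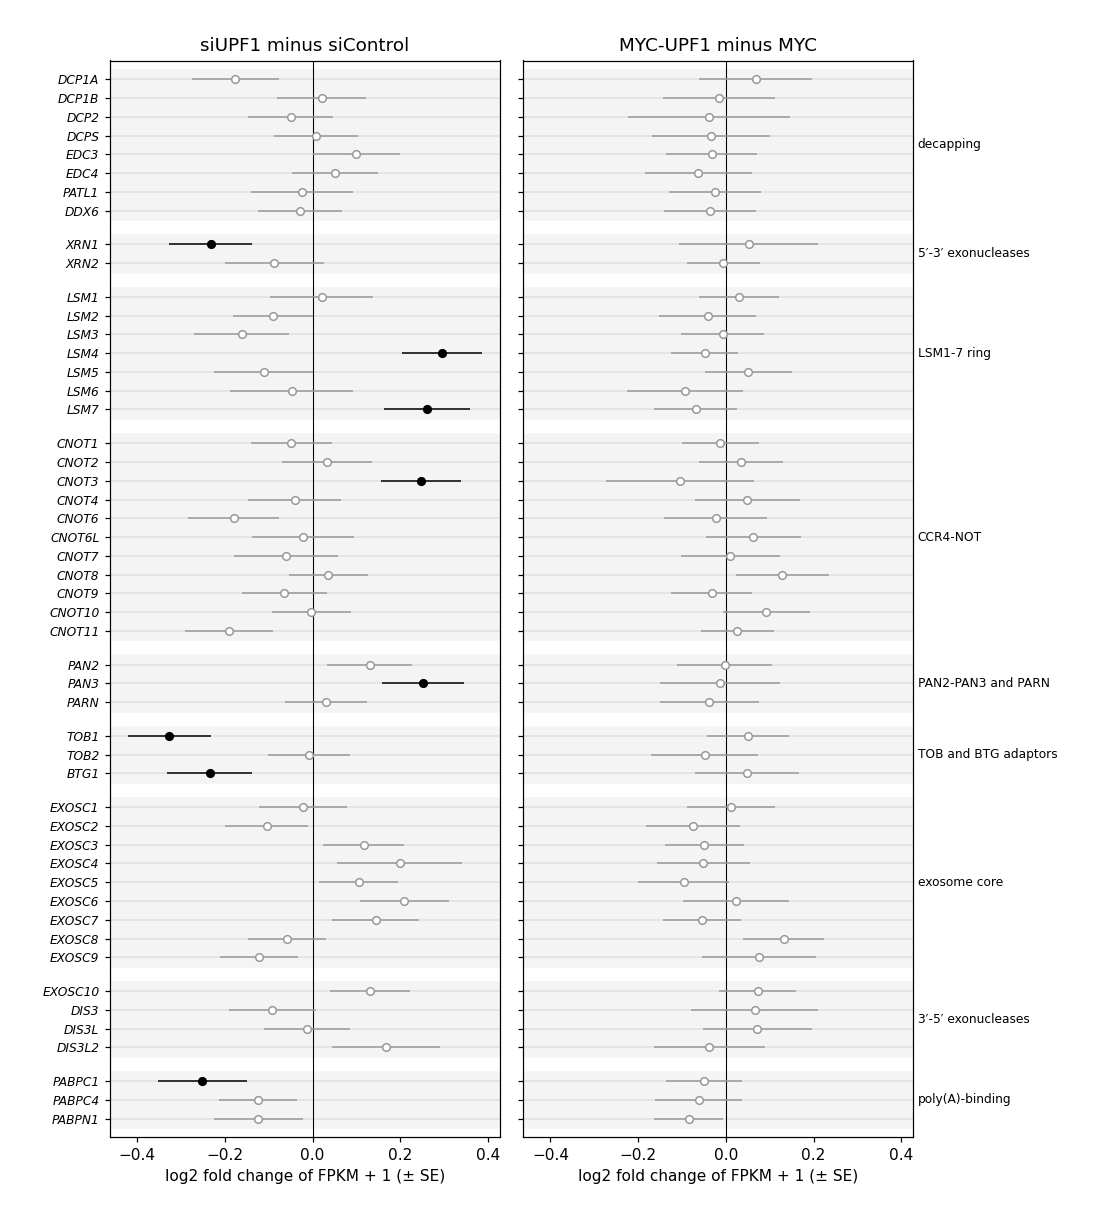
Log2 fold change of FPKM + 1 with its SE for each of the 50 genes after depletion (left) and overexpression (right), in bands by role. Filled black points passed an unadjusted p of 0.05: 8 after depletion, in both directions, and none after overexpression.

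Counted without a test, both siUPF1 libraries lay above both siControl libraries for 10 of 50 genes, against 37.5% of all genes, and below them for 15 of 50, against 18.5%. For 32 of 50 genes (64%) the difference between the group means was smaller than the larger gap between replicates, as it was for 59.2% of all genes tested. With 2 libraries against 2, 0.333 is the smallest two-sided p of an exact permutation test of a single gene, and the p-values therefore rest on the spread that limma shares across genes. The number of genes that passed depended on single libraries, for all genes as for these 50. With 1 library left out, the lone library of a group is assumed to vary like the other groups, so only effect sizes are given here. Without siUPF1 replicate 1 the log2 fold change was -0.39 for TOB1 and 0.33 for LSM4. Without siUPF1 replicate 2 it was -0.26 for TOB1 and 0.26 for LSM4. With quantile normalization the split became 3 rises and 7 falls, where 10.5% of all genes rose and 10.4% fell.

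The decapping group did not hold a gene that passed. This group of 8 takes in the decapping enzyme DCP2, its activators DCP1A, DCP1B, EDC3, EDC4, PATL1 and DDX6, and DCPS, which clears the cap left over from 3′-5′ decay. DCP2 was at 5.90 and 6.57 FPKM in siControl and at 6.13 and 5.84 FPKM in siUPF1, and the groups overlapped (log2 fold change -0.05, 95% interval -0.28 to 0.18). The 8 values ran from -0.18 for DCP1A to 0.10 for EDC3. DCP1A was the only one of the 8 with both depleted libraries below both controls (log2 fold change -0.18, adjusted p = 0.339).

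Of the 5′-3′ exonucleases, XRN1 fell. XRN1 digests decapped mRNA in the cytoplasm, and it was at 2.08 and 2.13 FPKM in siControl and 1.71 and 1.57 FPKM in siUPF1. Both depleted libraries were below both controls, and the log2 fold change was -0.23 (SE 0.10, adjusted p = 0.224). At this low level the added 1 FPKM shrinks the change, which was -0.34 with 0.1 FPKM added. XRN2, which acts in the nucleus at transcription termination, was at 52.8 and 50.5 FPKM in siControl and 53.2 and 44.3 FPKM in siUPF1, with overlapping groups (log2 fold change -0.09, adjusted p = 0.666).

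In the LSM1-7 ring, which binds the 3′ end of deadenylated mRNA and promotes decapping, 2 of 7 subunits rose and none fell. Of all genes tested, 16% rose and 5.51% fell. LSM4 was at 96.0 and 101 FPKM in siControl and 118 and 124 FPKM in siUPF1, a log2 fold change of 0.30 (SE 0.09, adjusted p = 0.149). LSM7 was at 91.2 and 94.9 FPKM in siControl and 106 and 118 FPKM in siUPF1, a log2 fold change of 0.26 (SE 0.10, adjusted p = 0.200). For both, each depleted library was above each control. LSM4 and LSM7 lie on chromosome 19 (GRCh37, 18417046 to 18433922 and 2321519 to 2328610, both on the minus strand). The other 5 subunits, LSM1, LSM2, LSM3, LSM5 and LSM6, had log2 fold changes from -0.16 (LSM3) to 0.02 (LSM1), and LSM2 and LSM3 were below both controls. LSM4 relative to LSM2, another ring subunit, was 0.39 higher on the log2 scale of this FPKM ratio in siUPF1 than in siControl. The ratio was 2.51 and 2.53 in siControl and 3.34 and 3.27 in siUPF1. In the MYC and MYC-UPF1 libraries it was 3.04 to 3.39, so siControl was the group that stood apart in this ratio. LSM2 was at 28.2 to 33.8 FPKM in these plasmid libraries, below its 35.4 to 39.9 FPKM in the siRNA libraries. LSM4 itself, at 95.3 to 103 FPKM in the plasmid libraries, was near siControl there, and siUPF1 stood apart. LSM2 to LSM7 also serve in the nuclear LSM2-8 ring of the splicing machinery, and some LSM genes have near-identical pseudogenes, so the assignment of their reads is uncertain.

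Among 11 CCR4-NOT genes, 1 rose and none fell, beside 16% and 5.51% of all genes tested. CNOT3, a scaffold-bound regulatory subunit, was at 22.0 and 22.4 FPKM in siControl and 25.7 and 27.5 FPKM in siUPF1, with no overlap (log2 fold change 0.25, SE 0.09, adjusted p = 0.194). CNOT1, the scaffold of the complex, was at 28.7 and 28.4 FPKM in siControl and 28.7 and 26.5 FPKM in siUPF1 (log2 fold change -0.05, 95% interval -0.27 to 0.17). Among the catalytic subunits, CNOT7, CNOT8 and CNOT6L overlapped between groups, and CNOT6 did not. CNOT7 was at 14.6 and 15.1 FPKM in siControl and 15.8 and 12.7 FPKM in siUPF1. CNOT8 was at 17.4 and 17.9 FPKM in siControl and 18.6 and 17.7 FPKM in siUPF1. CNOT6L was at 0.783 and 0.940 FPKM in siControl and 0.971 and 0.702 FPKM in siUPF1. In CNOT7 and CNOT6L the depleted libraries lay on both sides of the controls. CNOT11 (-0.19, adjusted p = 0.305) and CNOT6 (-0.18, adjusted p = 0.345) were below both controls and did not pass.

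PAN3 rose, and neither PAN2 nor PARN passed. PAN3, which recruits PAN2 to the poly(A) tail, was at 2.30 and 2.47 FPKM in siControl and 3.04 and 3.03 FPKM in siUPF1, each depleted library above each control (log2 fold change 0.25, SE 0.09, adjusted p = 0.194). It lies on chromosome 13 (GRCh37, 28712643 to 28869472, plus strand). PAN2 was at 11.5 and 12.6 FPKM in siControl and 13.7 and 12.8 FPKM in siUPF1, also without overlap, at a log2 fold change of 0.13 (adjusted p = 0.451). PARN, a separate poly(A)-specific ribonuclease, was at 8.48 and 8.10 FPKM in siControl and 8.86 and 8.13 FPKM in siUPF1, and its groups overlapped.

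TOB1 and BTG1 fell, 2 of the 3 adaptors that bring deadenylases to mRNA, where 5.51% of all genes tested fell. TOB1, an antiproliferative protein that binds both CNOT7/CNOT8 and PABPC1, was at 24.1 and 25.01 FPKM in siControl and 20.3 and 18.5 FPKM in siUPF1. Both depleted libraries were below every one of the other 6 libraries, and the log2 fold change was -0.33 (SE 0.10, adjusted p = 0.141). BTG1, an antiproliferative relative, was at 7.26 and 7.10 FPKM in siControl and 6.31 and 5.60 FPKM in siUPF1 (log2 fold change -0.24, SE 0.10, adjusted p = 0.228). Here the plasmid-transfected cells, at 5.53 to 6.18 FPKM, were also below siControl. TOB2, the paralogue of TOB1, was at 9.77 and 10.2 FPKM in siControl and 10.3 and 9.50 FPKM in siUPF1 (log2 fold change -0.01, 95% interval -0.23 to 0.21). The ratio of TOB1 to TOB2 was 2.47 and 2.45 in siControl and 1.96 and 1.94 in siUPF1. It was 1.82 and 1.62 in MYC and 1.72 and 1.99 in MYC-UPF1. In this ratio only siControl thus lay outside the range of the plasmid-transfected libraries. TOB2 was at 12.1 to 14.6 FPKM in those libraries, above its siRNA levels, and TOB1 at 22.2 to 24.0 FPKM. TOB1 lies on chromosome 17 from 48939584 to 48945339 and BTG1 on chromosome 12 from 92534054 to 92539622 (GRCh37, both on the minus strand). The antisense gene TOB1-AS1 was at most at 0.298 FPKM in any library.

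In the exosome, no subunit passed. The 9 core subunits form a ring without known catalytic activity in human cells, to which the nucleases attach. Core values ran from -0.12 for EXOSC9 to 0.21 for EXOSC6, with a median of 0.10. Both depleted libraries were above both controls for 4 of 9 (EXOSC3, EXOSC5, EXOSC6 and EXOSC7), against 37.5% of all genes. They were below them for 3 of 9 (EXOSC2, EXOSC8 and EXOSC9), against 18.5%. EXOSC6 had the highest value of the core, at 6.60 and 7.14 FPKM in siControl and 7.62 and 8.59 FPKM in siUPF1 (log2 fold change 0.21, adjusted p = 0.279). Among the nucleases, EXOSC10 was at 28.0 and 28.9 FPKM in siControl and 32.4 and 30.2 FPKM in siUPF1, without overlap (log2 fold change 0.13, adjusted p = 0.427). DIS3 was at 5.66 and 5.75 FPKM in siControl and 5.66 and 4.95 FPKM in siUPF1 (log2 fold change -0.09, adjusted p = 0.604). DIS3L2, which degrades uridylated RNA independently of the exosome, was at 4.30 and 4.46 FPKM in siControl and 4.42 and 5.73 FPKM in siUPF1 (log2 fold change 0.17, adjusted p = 0.447). Its second depleted library alone was high. DIS3L had a log2 fold change of -0.01.

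Of the poly(A)-binding proteins, PABPC1 fell, and the depleted libraries of all 3 were below both controls, as they were for 18.5% of all genes. PABPC1, the main cytoplasmic poly(A)-binding protein, was at 282 and 307 FPKM in siControl and 259 and 235 FPKM in siUPF1 (log2 fold change -0.25, SE 0.10, adjusted p = 0.217). PABPC4, its paralogue, was at 82.7 and 85.3 FPKM in siControl and 78.2 and 75.9 FPKM in siUPF1 (log2 fold change -0.12, adjusted p = 0.438). PABPN1, the nuclear poly(A)-binding protein, was at 62.4 and 71.5 FPKM in siControl and 61.9 and 60.5 FPKM in siUPF1 (log2 fold change -0.12, adjusted p = 0.493). PABPC1 has several processed pseudogenes, and PABPN1 overlaps the readthrough gene BCL2L2-PABPN1, listed at 0.427 to 3.02 FPKM, so their reads may be split.

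The direction of these changes ran with base composition, as it did across the genome. Transcript GC content was taken from the longest coding transcript of each gene. Across the 50 genes, GC content and log2 fold change after depletion had a Spearman correlation of 0.45, and across 12833 genes tested it was 0.54. After overexpression the sign was opposite, at -0.56 across the 50 genes and -0.43 across 12590 genes tested. These are correlations across genes, each within the 4 libraries of a comparison, and are given as descriptions. Genes tested for depletion were divided into 3 ranges of GC content, each holding 4277 or 4278 genes. In the lowest range, 1 of 20 rose (PAN3) and 4 of 20 fell (TOB1, BTG1, PABPC1 and XRN1), beside 3.60% and 10.3% of all genes in it. In the middle range none of 20 passed, beside 12.3% rises and 5.07% falls. In the highest range 3 of 10 rose (LSM4, LSM7 and CNOT3) and none fell, beside 32.3% and 1.22%. PAN3, the PAN2 partner, was therefore the 1 rise outside the GC-rich range. It did not pass with quantile normalization (log2 fold change 0.18), with the replicate number as a block or with all 8 libraries in a single fit.

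When the trend with GC content and length was removed from each library, 3 of 50 genes rose (CNOT2, EXOSC3 and PAN3) and 7 fell (TOB1, PABPC1, PABPC4, PABPN1, CNOT11, EDC4 and LSM2), and 3 genes were shared with the 8 above. Of all genes, 11.02% rose and 11.6% fell in this setting. EDC4, the decapping scaffold, changed sign, from 0.05 to -0.17. TOB1 then had a log2 fold change of -0.27 (adjusted p = 0.0755), PAN3 of 0.28 (adjusted p = 0.118) and PABPC1 of -0.22 (adjusted p = 0.128). LSM4 (0.13, adjusted p = 0.269), LSM7 (0.10, adjusted p = 0.372), CNOT3 (0.04, adjusted p = 0.747), BTG1 (-0.16, adjusted p = 0.236) and XRN1 (-0.17, adjusted p = 0.248) did not pass. In this setting all 3 poly(A)-binding proteins fell: PABPC4, the cytoplasmic paralogue, by 0.25 and PABPN1, the nuclear protein, by 0.23 on the log2 scale. The part of GC content in these results was not tested beyond this removal.

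Overexpression was compared with the MYC vector in the same way. None of the 50 genes passed an unadjusted p of 0.05 in limma, where 0.619% of the 13251 genes tested rose and 0.807% fell, and none passed an adjusted p of 0.05, which 0.00755% did, with UPF1 as the only gene. Log2 fold changes ran from -0.10 for CNOT3 to 0.13 for EXOSC8, and the 95% intervals of the 50 genes lay between -0.48 (lower end for CNOT3) and 0.41 (upper end for XRN1). Both MYC-UPF1 libraries were above both MYC libraries for 4 of 50 genes (CNOT10, CNOT11, EXOSC8 and EXOSC10), against 8.88% of all genes. They were below them for 3 of 50 (EXOSC3, EXOSC7 and PABPN1), against 11.8%. For 45 of 50 genes (90%) the difference between means was smaller than the larger replicate gap, as for 87.9% of all genes.

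EXOSC8, a core exosome subunit, had the smallest unadjusted p, 0.185, and lay at 21.1 and 21.6 FPKM in MYC and 23.1 and 23.8 FPKM in MYC-UPF1. EXOSC10, the nuclear nuclease, was at 28.4 and 28.6 FPKM in MYC and 30.1 and 29.9 FPKM in MYC-UPF1 (log2 fold change 0.07). In both genes the groups did not overlap. TOB1 was at 22.2 and 23.7 FPKM in MYC and 23.5 and 24.0 FPKM in MYC-UPF1, and LSM4 at 98.6 and 103 FPKM against 99.8 and 95.3 FPKM. LSM7 was at 95.5 and 112 FPKM in MYC and 94.8 and 103 FPKM in MYC-UPF1. All 3 overlapped between groups.

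The remaining genes that passed after depletion also overlapped between MYC and MYC-UPF1. PAN3 was at 2.51 and 2.17 FPKM in MYC and 1.99 and 2.65 FPKM in MYC-UPF1, and PABPC1 at 266 and 287 FPKM against 287 and 247 FPKM. BTG1, the antiproliferative adaptor, was at 5.53 and 6.03 FPKM in MYC and 6.18 and 5.84 FPKM in MYC-UPF1. CNOT3 and XRN1 had wide replicate gaps of opposite sign. CNOT3 was at 20.5 and 28.8 FPKM in MYC and 25.9 and 19.5 FPKM in MYC-UPF1, and XRN1 at 1.72 and 1.24 FPKM against 1.22 and 1.96 FPKM.

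The catalytic and scaffold genes likewise did not pass. DCP2, the decapping enzyme, was at 5.14 and 3.60 FPKM in MYC and 3.41 and 5.07 FPKM in MYC-UPF1, with wide gaps in both groups (95% interval -0.46 to 0.38). CNOT1, the CCR4-NOT scaffold, was at 33.2 and 35.2 FPKM in MYC and 33.8 and 34.0 FPKM in MYC-UPF1, above its 26.5 to 28.7 FPKM in the siRNA-transfected libraries. This difference between kinds of transfection was not tested. Of its nucleases, CNOT7 was at 13.4 and 12.4 FPKM in MYC and 12.1 and 13.8 FPKM in MYC-UPF1. CNOT8 was at 18.9 and 16.7 FPKM in MYC and 18.7 and 20.4 FPKM in MYC-UPF1, and CNOT6L at 1.06 and 0.912 FPKM against 1.01 and 1.14 FPKM. All 3 overlapped. The tail nucleases PAN2, at 12.9 and 14.7 FPKM in MYC and 13.9 and 13.6 FPKM in MYC-UPF1, and PARN, at 7.94 and 7.67 FPKM against 7.46 and 7.70 FPKM, overlapped as well. The exosome nuclease DIS3 was at 4.82 and 3.92 FPKM in MYC and 4.11 and 5.14 FPKM in MYC-UPF1. DIS3L2, the exosome-independent nuclease, was at 4.44 and 5.05 FPKM in MYC and 4.39 and 4.80 FPKM in MYC-UPF1.

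The replicate gaps had a common pattern in the overexpression libraries. For 39 of 50 genes the gap between replicate 1 and replicate 2 had opposite signs in MYC and MYC-UPF1, and over the 50 genes the gaps had a Pearson correlation of -0.76, given as a description across genes of the same libraries. Replicate 1 minus replicate 2 ran with transcript GC content, with a Spearman correlation of -0.70 in MYC and 0.55 in MYC-UPF1. MYC replicate 1 thus sat with MYC-UPF1 replicate 2 on these genes, with DCP2, XRN1, DIS3 and PAN3 high and CNOT3 and EDC4 low in both. Across all genes, log2(FPKM + 1) correlated at 0.9977 between these 2 libraries and at 0.9961 between the MYC replicates. With the libraries that resembled each other paired as a block, a pairing chosen after seeing the data, 1 of the 50 genes passed an unadjusted p of 0.05 (EXOSC8, a rise), where 2.63% of all genes rose and 6.63% fell. In that fit 32 genes passed an adjusted p of 0.05, none of them among the 50, against 1 without the block. In the depletion arm, replicate 1 minus replicate 2 also ran with GC content over the 50 genes in siUPF1 (Spearman correlation -0.56). In siControl this correlation was -0.15.

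The effect of depletion minus the effect of overexpression was tested in a fit of all 8 libraries. Of 50 genes, 2 had a larger effect of depletion and 1 a smaller one at an unadjusted p of 0.05, where 11.8% and 3.4% of 13412 genes did. LSM4 differed by 0.34 (adjusted p = 0.221) and LSM7, its neighbour in the ring, by 0.33 (adjusted p = 0.316). With the trend with GC content and length removed, both differences were 0.13 and neither passed (adjusted p = 0.399 and adjusted p = 0.565). TOB1, the deadenylation adaptor, differed by -0.38 (adjusted p = 0.227). None of the 50 passed an adjusted p of 0.05, which 0.0224% of all genes did. For CNOT3 (0.35, adjusted p = 0.463), PAN3 (0.27, adjusted p = 0.455), XRN1 (-0.28, adjusted p = 0.513), BTG1 (-0.28, adjusted p = 0.376) and PABPC1 (-0.20, adjusted p = 0.487), the effects of depletion and overexpression were not shown to differ.

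Other genes of the same pathways were taken from a list of 53, of which 52 have a value and were tested: further decapping factors, deadenylation factors, exosome cofactors and tail-binding or tail-extending proteins. After depletion, 5 of 52 rose (LSM14B, PNRC2, TNKS1BP1, TNRC6B and LARP1) and 3 fell (EIF4E, TENT4B and C1D), or 9.62% and 5.77%, beside the 16% and 5.51% of all genes. After overexpression none of the 52 passed in limma. C1D, a nuclear exosome cofactor, was at 6.17 and 6.61 FPKM in siControl and 5.28 and 4.40 FPKM in siUPF1 (log2 fold change -0.34, adjusted p = 0.157). PNRC2, an adaptor between UPF1 and the decapping complex, was at 41.0 and 43.2 FPKM in siControl and 58.7 and 48.7 FPKM in siUPF1 (log2 fold change 0.34, adjusted p = 0.173). TNRC6B, which links Argonaute to the deadenylases, was at 2.07 and 1.92 FPKM in siControl and 2.60 and 2.76 FPKM in siUPF1 (log2 fold change 0.30, adjusted p = 0.159). In all 3 the groups did not overlap. After overexpression the smallest unadjusted p-values were 0.157 for ZCCHC7, of the nuclear polyadenylation complex that feeds the exosome, 0.204 for LARP1, a tail- and cap-binding protein, and 0.238 for BTG3, a relative of BTG1.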

How the data were processed

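mRNA of Huh7 cells was sequenced from both ends after TruSeq Stranded mRNA preparation. Per the labels and the study's methods, the authors trimmed reads (Trimmomatic 0.38, checked with FastQC 0.11.7), aligned them to hg19 with HISAT2 2.1.0, assembled transcripts with StringTie 1.3.4d and NCBI gene models, and deposited an FPKM value for each gene. Whether counting used strand is not given in the sources used here. The whole-series tables and single-library files differed in 0 values. At most 1.405% of 854 low genes shared a commonest ratio between libraries, so whole reads were not recovered, depth is unknown and no model of counts was run.

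On the scale log2(FPKM + 1), siUPF1 was compared with siControl and MYC-UPF1 with MYC in limma 3.58.1 (R 4.3.3; lmFit, eBayes with trend, two-sided), over all genes with a mean of at least 0.5 FPKM. Fold changes on this scale understate those of low genes. Calls were made at an unadjusted p of 0.05, the study's threshold, and at a Benjamini-Hochberg adjusted p of 0.05. The fit was tested on simulated data. The genes, lists and tests were chosen with earlier results of these data known. Each gene is given by its role group, and those that passed a test, with the catalytic or scaffold genes, by library. Of other pathway genes, the 3 with the smallest p per comparison are named, and others were named after their values were seen. Transcript GC content and length came from GENCODE release 44 on GRCh37 for 92.2% of genes. The trend removal used loess with a span of 0.5. Alternatives were a pseudocount of 0.1, no minimum, a minimum of 5 FPKM, quantile normalization, median centring, a block for the replicate number, a prior variance with no trend in eBayes, removal of the trend with GC content and length, a single fit of 8 libraries, and each library left out. The crossed pairing was chosen after seeing the data. Tables were handled in pandas 2.3.3 (Python 3.11.15) and plotted in matplotlib 3.10.9. The reporter, protein, growth and xenograft experiments were not analysed here. Of the cell type markers, 1 gene is not reported here.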

Additional observations from a re-analysis of the deposited data

Results flagged for a closer look

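For 3 genes the effect of depletion differed from the effect of overexpression in limma at an unadjusted p, by the test of the difference itself. By the same test, 11.8% of the 13412 genes tested had a larger and 3.4% a smaller effect of depletion. Among the genes described here these shares were lower, at 4% and 2%. LSM4, of the ring that promotes decapping, differed by 0.34 on the log2 scale, with both siUPF1 libraries above all 6 other libraries, but by 0.13 without passing when the trend with GC content and length was removed. LSM7, of the same ring, differed by 0.33, although the higher MYC library, at 112 FPKM, exceeded 1 of the 2 siUPF1 libraries, at 106 FPKM. The LSM7 difference did not pass in 4 of 8 alternatives with all libraries, where it was 0.13 to 0.33 in all, nor in 5 of 8 with 1 library left out. TOB1, an adaptor of deadenylation, differed by -0.38, with both siUPF1 libraries below all 6 others, and passed in 8 of 8 alternatives and in 7 of 8 with 1 library left out (not without siControl replicate 2). None passed an adjusted p of 0.05.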

How the results depend on the processing

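After depletion, 8 genes passed. The count was 3 with the replicate number as a block (LSM4, LSM7 and TOB1), 5 with all 8 libraries in a single fit, and 0 to 19 with 1 library left out. It stayed within 1.5 times of 8 under the other alternatives, at 6 to 10. Of all genes, 14.6% rose and 4.48% fell with the replicate block, and 16.6% and 6.08% with the single fit. For the difference between effects, 3 passed, against 6 with quantile normalization, 5 with median centring and 7 with the GC and length trend removed (1 shared with the 3). Of all genes, 7.63% had a larger and 6.76% a smaller effect of depletion with quantile normalization. These shares were 8.25% and 5.79% with median centring, and 7.84% and 8.09% with the trend removed. The count for the difference also moved without either siControl library and without siUPF1 replicate 1. After overexpression the count was 0 under all alternatives but the crossed pairing, which gave 1 (EXOSC8), and 0 to 1 with 1 library left out (CNOT3 without MYC replicate 1). TOB1 passed after depletion under all 10 alternatives with all libraries, at -0.37 to -0.27, and without either siUPF1 library, but not without siControl replicate 1 or 2, where its adjusted p reached 0.541. None of the 8 genes and none of the 3 differences changed direction under the alternatives run, but the median of the 50 genes relative to all genes after depletion went from -0.080 to 0.0089 with the GC and length trend removed. The causes were not tested.

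Replicate numbers were not taken as pairing: deviations from group means correlated at -0.129 (depletion) and -0.569 (overexpression) over 2 pairs. The block changed no count for overexpression (0) or the difference (3). The crossed pairing gave 6 after depletion. Having 2 libraries per group and no known depth limits all values.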
